A study of Mus musculus with 11 samples.

Results

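The 8 genes described here, Lif, Lifr, Il6st, Jak1, Jak2, Stat3, Socs3 and Pim1, encode the ligand, receptor, kinases, transcription factor and direct outputs of LIF signalling. They were chosen by symbol from the 23288 gene symbols of an expression table of mouse embryonic stem cells (ESCs), and all 8 were found. For each gene, the level in 4 RNA-seq libraries was read, together with the peaks of 4 ChIP-seq lists that lie at the gene.

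Leukaemia inhibitory factor (LIF) binds a receptor made of LIFR and gp130, the product of Il6st. Janus kinases attached to the receptor, mainly JAK1 and JAK2, phosphorylate STAT3, which moves to the nucleus and activates genes such as Socs3, Pim1, Klf4 and Tfcp2l1. SOCS3 in turn binds gp130 and the Janus kinases and shuts the signal off, and PIM1 is a serine and threonine kinase that favours survival and self-renewal. In mouse ESCs kept in serum, LIF and STAT3 hold back differentiation and sustain the naive pluripotent state.

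All cells were E14Tg2A ESCs, a wild-type mouse line, grown without feeders on gelatin in serum with LIF, so that every group received the ligand from the medium. RNA-seq covered 2 libraries of ESCs infected with a lentivirus carrying a control hairpin (shCtl) and 2 of ESCs with a hairpin against Cbx6 (shCbx6), a Polycomb protein of the CBX family. Which Cbx6 hairpin each library carried is not given in the sources used here, and the infected cells were selected as pools with antibiotic. ChIP-seq covered 2 replicates with an antibody to HA in an ESC line whose own Cbx6 gene was tagged with 3×HA by genome editing, 1 sample for CBX7 and 1 for RING1B. CBX7 is another Polycomb protein of the CBX family, and RING1B is the ubiquitin ligase at the core of PRC1. The ChIP of HA in untagged ESCs and the IgG controls, 3 samples, were not analysed here.

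Expression is given in FPKM, fragments counted relative to the length of the transcript and to the mapped fragments of the library, which allows levels of different genes to be compared per length. The FPKM of a library summed to between 678246 and 734862, and between 11116 and 11325 genes reached 1 FPKM. Differences between the groups were tested with limma on log2(FPKM + 1) over the 11592 genes whose mean reached 1 FPKM under either hairpin, two-sided, with adjustment of p over all of them. The labels do not say that the libraries came from separate cultures, so p measures the spread between these libraries, which may be technical. With 2 libraries against 2, an exact permutation test of a single gene cannot go below p = 0.333, and in bulk samples fewer cells of a type and less RNA per cell cannot be told apart.

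Cbx6 itself, the target of the hairpin, measured 17.4 and 14.9 FPKM in shCtl against 9.53 FPKM in replicate 1 and 5.40 FPKM in replicate 2 of shCbx6. Both knockdown libraries were thus below both controls. Its log2 difference was -1.06 ± 0.263 (SE, limma, adjusted p = 0.247).

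Among the RNA-seq libraries, shCbx6 replicate 2 stood apart. The summed FPKM of 10 trophectoderm markers was 23.3 and 25.9 in shCtl, 40.8 in shCbx6 replicate 1 and 269 in shCbx6 replicate 2. Of these markers, 8 were higher and 1 was lower in both shCbx6 libraries than in both shCtl libraries. Of the 7 that were tested, 5 were higher and 1 was lower, where the shares of all tested genes were 18.9% and 24.4%. Krt7 and Hand1 entered the test only through their shCbx6 means. No marker of this list was at 0 in every library. The keratins Krt8 and Krt18 reached 119 and 122 FPKM in shCbx6 replicate 2, against 12.1 and 13.2 FPKM in shCbx6 replicate 1. These keratins made up most of the sum in replicate 2. There the rest of the list read Tfap2c 9.04, Krt7 9.02, Tead4 4.93, Eomes 1.92, Hand1 1.80, Cdx2 0.511, Gata3 0.489 and Elf5 0.0533 FPKM. Eomes overlapped between the groups, and Tead4 was the marker that was lower. The summed FPKM of 10 ESC markers was 7803 and 8899 in shCtl against 7153 and 6110 in shCbx6, far above every other list in all 4 libraries. The sums of the other lists were 1.71 to 5.80 FPKM over 10 fibroblast markers (Lum at 0 in all libraries) and 4.91 to 12.3 FPKM over 9 primitive endoderm markers. They were 0.809 to 1.63 FPKM over 8 mesoderm markers (Hand2 at 0) and 27.7 to 42.1 FPKM over 9 neuroectoderm markers (Neurog2 at 0). Within these lists single markers moved in either direction, and those given were named after their values were seen. From shCtl to shCbx6, Pax6 went from 1.47 and 0.569 to 5.51 and 1.82 FPKM, and Nes from 0.673 and 0.720 to 1.59 and 3.27 FPKM. T went from 0.0984 and 0.0324 to 0.446 and 0.771 FPKM. Sox1 fell from 2.14 and 2.40 to 0.767 and 0.287 FPKM, and Lama1 from 9.95 and 9.30 to 2.90 and 2.04 FPKM.

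In control ESCs, the RNAs of the pathway's outputs were the most abundant of the 8 and that of its ligand the least. The outputs Pim1 and Socs3 stood highest, at means of 45.2 ± 1.82 and 37.0 ± 1.74 FPKM (SD, n = 2), which is the 82.8th and the 79.0th percentile of all tested genes. Stat3 followed at 21.5 ± 0.728 FPKM (67.6th percentile), then Il6st at 16.7 ± 0.318 FPKM, Jak1 at 12.3 ± 0.201 FPKM and Lifr at 7.99 ± 1.11 FPKM. Jak2, at 1.09 ± 0.0638 FPKM, lay at the 4.68th percentile, and Lif, at 0.308 ± 0.139 FPKM, below the 1 FPKM taken by the authors as expressed. In this order the control values of neighbours did not overlap, and the order of the means was the same in the shCbx6 libraries.

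**Figure D1:**
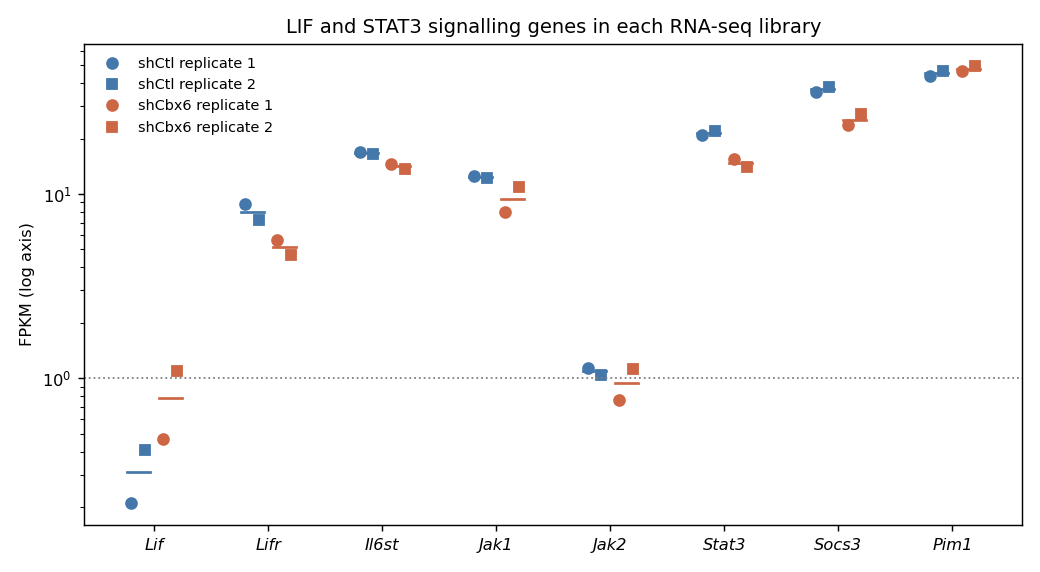
FPKM on a log axis of the 8 genes in each RNA-seq library, with a short line at each group mean (n = 2) and a dotted line at 1 FPKM. Lifr, Il6st, Jak1, Stat3 and Socs3 were lower in both shCbx6 libraries than in both shCtl libraries, Jak2 and Pim1 overlapped, and Lif was higher.

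In shCbx6 ESCs, 5 of the 8 genes were read below both control libraries: Lifr, Il6st, Jak1, Stat3 and Socs3. None of the 7 tested members passed the adjusted threshold of 0.05, which 0.0949% of all genes passed. By unadjusted p under 0.05, 3 of the 7 were lower (Lifr, Stat3 and Socs3), against 6.55% of all genes lower and 11.7% in either direction. At 1.5-fold between the group means, the threshold of the study, 1 member was lower (Lifr) and 0 higher, against 6.56% and 7.63% of all genes. Groups that did not overlap were found with lower values for 5 of the 7 tested members and with higher values for 0, against 24.4% and 18.9% of all genes. The median log2 difference of the 7 was -0.37, and that of all tested genes -0.01.

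Among the receptor genes, Lifr, the subunit that gives the receptor its specificity for LIF, measured 8.78 and 7.21 FPKM in shCtl against 5.62 and 4.65 FPKM in shCbx6. The shCbx6 mean was 0.643 times the control mean, with a log2 difference of -0.55 ± 0.167 (SE, limma, adjusted p = 0.317). Without shCbx6 replicate 2 the ratio was 0.703 and without shCtl replicate 1 it was 0.712, neither past 1.5-fold. Il6st, the signalling subunit shared by the cytokines of the interleukin 6 family, measured 16.9 and 16.4 FPKM in shCtl against 14.6 and 13.7 FPKM in shCbx6. The groups were close but did not overlap, and the log2 difference was -0.22 ± 0.129 (SE, limma, adjusted p = 0.596). Within a library, the ratio of Lifr to Il6st was 0.520 and 0.439 in shCtl and 0.384 and 0.339 in shCbx6, so Lifr was scarcer relative to Il6st in both shCbx6 libraries.

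The ligand gene, Lif, went the other way. Its values were 0.210 and 0.407 FPKM in shCtl against 0.465 and 1.10 FPKM in shCbx6, a ratio of means of 2.54. With both group means under 1 FPKM it did not enter the test. The shCbx6 value nearest the controls, 0.465 FPKM, came from replicate 1 and was close to the 0.407 FPKM of shCtl replicate 2. The high value came from shCbx6 replicate 2, the library with the high keratins, whose part in this difference was not tested.

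The kinase genes differed more from each other in level than between the groups. Jak1, the main kinase of gp130 signalling, measured 12.5 and 12.2 FPKM in shCtl against 7.94 and 10.9 FPKM in shCbx6, a log2 difference of -0.37 ± 0.178 (SE, limma, adjusted p = 0.507). Its shCbx6 libraries were apart from each other: replicate 1 alone gave a ratio of 0.644 to the control mean and replicate 2 alone 0.882. Jak2, its relative, measured 1.13 and 1.04 FPKM in shCtl against 0.759 and 1.12 FPKM in shCbx6, and the groups overlapped (log2 difference -0.11 ± 0.199 SE, limma, adjusted p = 0.880). Jak2 passed the filter on low values by its control mean, as its shCbx6 mean was 0.939 FPKM. Jak1 was between 9.72 and 11.7 times as abundant as Jak2 in the 4 libraries.

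Stat3, the factor that carries the signal to the genome, measured 21.0 and 22.0 FPKM in shCtl against 15.4 and 14.0 FPKM in shCbx6. The shCbx6 mean was 0.683 times the control mean, short of 1.5-fold, with a log2 difference of -0.52 ± 0.134 (SE, limma, adjusted p = 0.255). The gap between the groups was larger than the gap between the libraries of either group. Without shCbx6 replicate 1 the ratio was 0.650, which is past 1.5-fold.

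Socs3, the feedback inhibitor, measured 35.7 and 38.2 FPKM in shCtl against 23.7 and 27.0 FPKM in shCbx6. Its log2 difference of -0.53 ± 0.142 (SE, limma, adjusted p = 0.274) was close in size to that of Stat3. Its ratio moved from 0.687 to 0.642 without shCbx6 replicate 2 and to 0.665 without shCtl replicate 1, both past 1.5-fold. The ratio of Socs3 to Stat3 within a library was 1.70 and 1.73 in shCtl and 1.54 and 1.93 in shCbx6, and the groups overlapped. Pim1, the other direct output, measured 43.9 and 46.4 FPKM in shCtl against 46.3 and 49.6 FPKM in shCbx6, with overlapping groups (log2 difference 0.08 ± 0.136 SE, limma, adjusted p = 0.866). The ratio of Socs3 to Pim1 was therefore lower in shCbx6 ESCs, at 0.512 and 0.545 against 0.814 and 0.822 in the controls.

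The genes whose 4 values ran closest to those of Socs3, by the Euclidean distance between centred log2(FPKM + 1) values over the 4 libraries, were Camta1 (distance 0.0277), Twf1 (0.0353) and Hsf2bp (0.0381). Those closest to Pim1 were Jmjd6 (0.0149), Fbln1 (0.0164) and Maoa (0.0207). With 4 libraries such likeness is a description of the profiles only.

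The wider pathway was followed with lists of ligands, receptors, kinases, STAT factors, negative regulators, PIM kinases, STAT3 targets and the RAS and PI3K arm, 64 genes in all with the members, of which 56 were tested. None passed the adjusted threshold, while 16 had an unadjusted p under 0.05 by limma, 14 lower and 2 higher (11.7% of all genes in either direction, 6.55% lower). At 1.5-fold, 11 were lower and 4 higher, where the shares of all genes were 6.56% and 7.63%. Groups that did not overlap were found for 25 genes with lower values and for 7 with higher values, where the shares of all genes were 24.4% and 18.9%. The median log2 difference was -0.12 over the 56 genes and -0.09 over the 49 that are not members.

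Of 5 tested receptor genes, 4 were below both controls, a state of 24.4% of all genes, and among them Il11ra1, a receptor chain for interleukin 11, went from 2.77 and 2.69 to 1.91 and 1.22 FPKM and Cntfr, the receptor chain for ciliary neurotrophic factor, from 5.995 and 4.49 to 3.81 and 2.39 FPKM (limma, adjusted p = 0.386 and 0.409). Neither was past 1.5-fold without shCbx6 replicate 2, at ratios of 0.698 and 0.727, nor Cntfr without shCtl replicate 1, at 0.690. Of 7 STAT genes, 6 were below both controls (24.4% of all genes) and Stat2, named after its values were seen, was above (18.9%). Stat4 measured 3.76 and 3.22 FPKM in shCtl against 2.40 and 1.83 FPKM in shCbx6 (log2 difference -0.53 ± 0.178 SE, limma, adjusted p = 0.353), and without shCbx6 replicate 2 its ratio of 0.687 was short of 1.5-fold. Stat5a was also lower past 1.5-fold, at a control mean of 1.09 FPKM through which alone it passed the filter, and its value of 0.811 FPKM in shCbx6 replicate 2 was by itself short of 1.5-fold. All 4 kinase genes had log2 differences below 0, from -0.37 for Jak1 to -0.11 for Jak2, and none was past 1.5-fold.

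The list of STAT3 targets, which holds Stat3, Socs3 and Pim1 too, ranged from -1.52 to 0.62 in log2 difference, with a median of -0.40. Of its 13 genes, 8 were below both controls (24.4% of all genes), 0 were above both (18.9%) and 5 overlapped. By unadjusted p under 0.05, 7 were lower (6.55% of all genes) and 0 higher. The 3 targets lower past 1.5-fold were Klf4, Tfcp2l1 and Gbx2. Klf4, a naive pluripotency factor induced by STAT3, measured 91.1 and 96.7 FPKM in shCtl against 36.7 and 28.0 FPKM in shCbx6 (log2 difference -1.52 ± 0.177 SE, limma, adjusted p = 0.0842). Tfcp2l1, a STAT3 target that can sustain self-renewal, measured 64.8 and 55.6 against 35.5 and 17.7 FPKM (-1.23 ± 0.331 SE, limma, adjusted p = 0.274), and Gbx2, a homeobox gene of the same set, measured 20.8 and 21.0 against 13.5 and 10.3 FPKM (-0.78 ± 0.166 SE, limma, adjusted p = 0.201). The log2 difference of Tfcp2l1 was -0.74 without shCbx6 replicate 2, and its ratio moved from 0.441 to 0.293 without shCbx6 replicate 1. The shCbx6 means of these 3 targets were 0.344, 0.441 and 0.569 times their control means, against 0.687 for Socs3 and 1.06 for Pim1. On the arm that runs through PI3K, Tbx3, a T-box factor, measured 34.3 and 34.0 against 13.1 and 6.90 FPKM (-1.73 ± 0.287 SE, limma, adjusted p = 0.131). Nanog, which TBX3 sustains, measured 321 and 359 against 204 and 192 FPKM (-0.78 ± 0.160 SE, limma, adjusted p = 0.188). Klf4 and Nanog also stand among the ESC markers summed above.

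**Figure D2:**
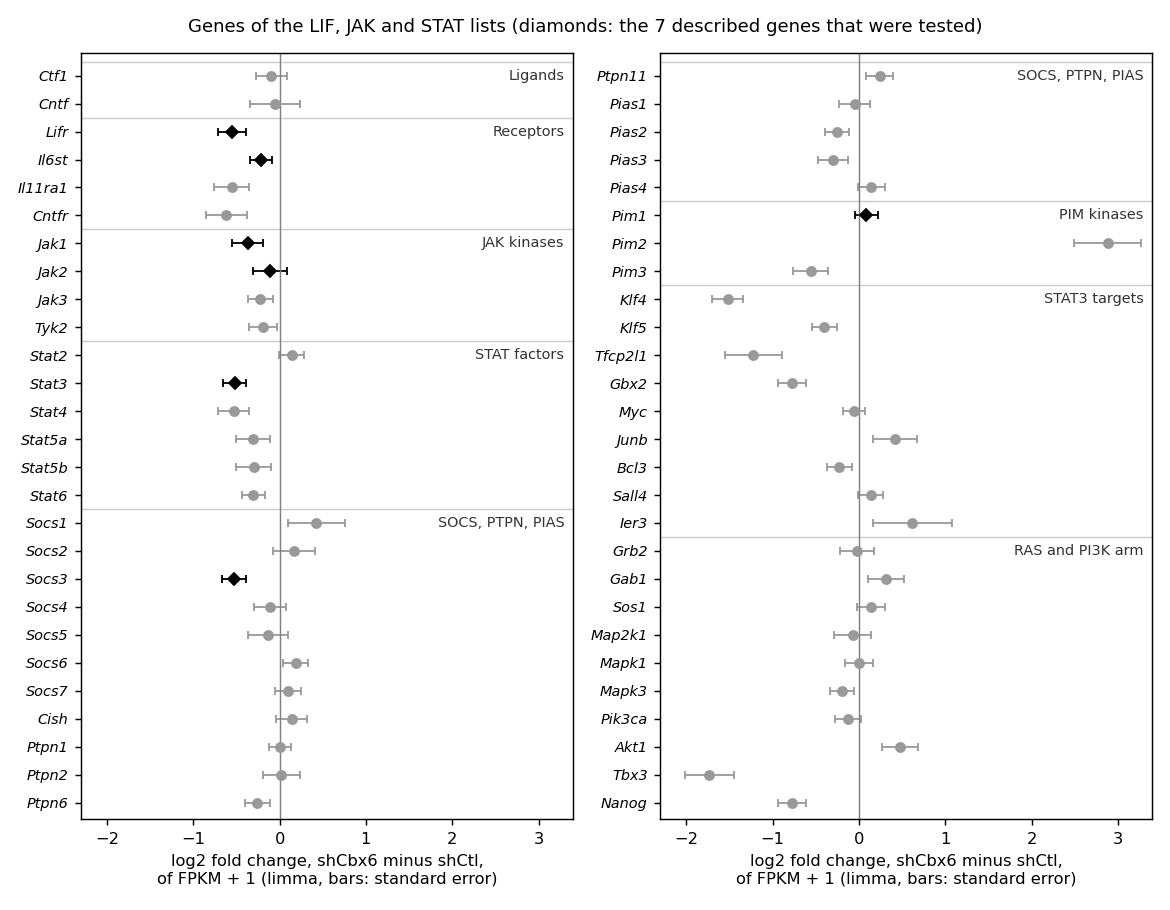
Log2 fold change of FPKM + 1, shCbx6 minus shCtl, with its standard error from limma (2 libraries per group), for tested genes of the pathway lists, with the tested members as black diamonds. The members lay between -0.55 (Lifr) and 0.08 (Pim1), inside the range from -1.73 (Tbx3) to 2.88 (Pim2).

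The 3 PIM kinase genes differed in direction. Pim2, which encodes a relative of PIM1, measured 5.82 and 7.44 FPKM in shCtl against 36.6 and 82.0 FPKM in shCbx6, with a ratio of means of 8.95 and a log2 difference of 2.88 ± 0.385 (SE, limma, adjusted p = 0.100). Without shCbx6 replicate 2, the library with the high keratins, the ratio was 5.52. That ratio sets a single shCbx6 library against the controls. Pim3, mentioned because of its values, measured 95.4 and 112 against 81.7 and 59.7 FPKM. The ratio of Pim2 to Pim3 was 0.0610 and 0.0664 in shCtl and 0.448 and 1.37 in shCbx6, and Pim1 overlapped between the groups. Neither difference passed the adjusted threshold.

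Socs1, a further SOCS inhibitor, and Ier3, an immediate early gene, were also past 1.5-fold with higher shCbx6 means. Their groups overlapped, Socs1 passed the filter only through its shCbx6 mean of 1.16 FPKM, and both are named after their values were seen.

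**Figure D3:**
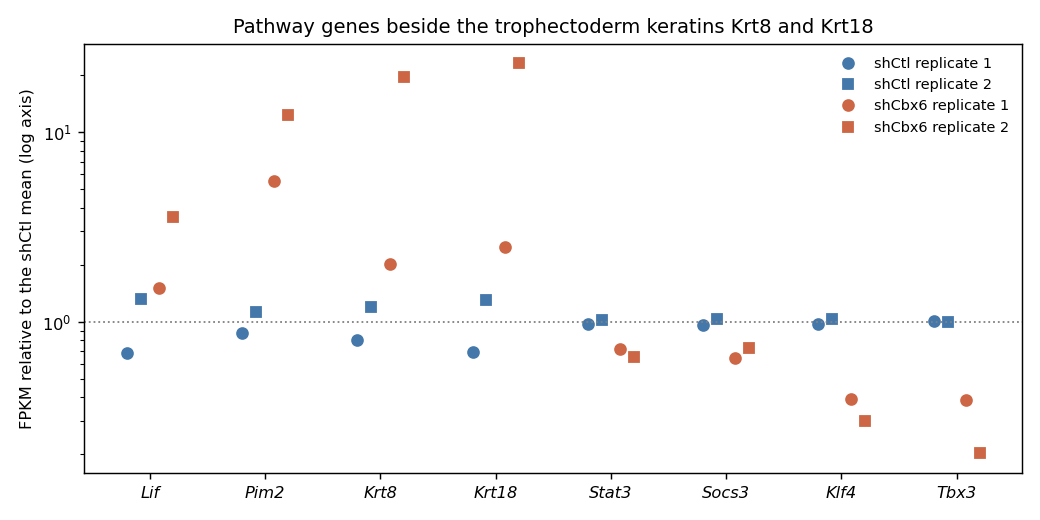
FPKM in each library divided by the mean of the 2 shCtl libraries, on a log axis, for pathway genes beside the trophectoderm markers Krt8 and Krt18. In shCbx6 replicate 2, where the keratins reached 119 and 122 FPKM, Lif and Pim2 were also at their highest, while Stat3 and Socs3 were lower in both shCbx6 libraries.

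The ChIP-seq lists were read at each gene from 2.5 kb upstream of its start to the end of transcription, the rule by which the study assigned targets, with an overlap of at least 1 bp. Read this way, 12474 genes had a CBX6 replicate 1 peak and 3634 a CBX6 replicate 2 peak. The paper reports fewer CBX6 target genes than either number. A peak of 1 replicate therefore does not by itself make a gene a CBX6 target of the paper. A peak is a stretch of the mm9 genome where immunoprecipitated fragments pile up, and its score, from the peak caller MACS, grows with its significance and was used only within a list. The lists held 21865 peaks for CBX6 replicate 1, 5103 for CBX6 replicate 2, 5081 for CBX7 and 4180 for RING1B. They give no read counts, so the depth behind a peak is unknown here.

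Most members carried a peak in the longest list and few in the others. CBX6 replicate 1 had a peak at 7 of the 8 genes, against 56.9% of the 21921 genes with coordinates and 78.95% of the 11353 of them that were expressed. CBX6 replicate 2 had one at 2 members, Jak1 and Jak2, against 16.6% of all genes and 13.05% of expressed genes. CBX7 had one at 3 members, Lif, Jak1 and Jak2, against 17.9% and 12.8%, and RING1B at 1, Jak2, against 16.1% and 10.8%. The 56 other pathway genes had a peak at 47 (83.9%), 14 (25%), 16 (28.6%) and 11 (19.6%) in the same order of lists. A peak in CBX6 replicate 1 alone was the state of Lifr, Stat3, Socs3 and Pim1 and of 62.4% of expressed genes.

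**Figure D4:**
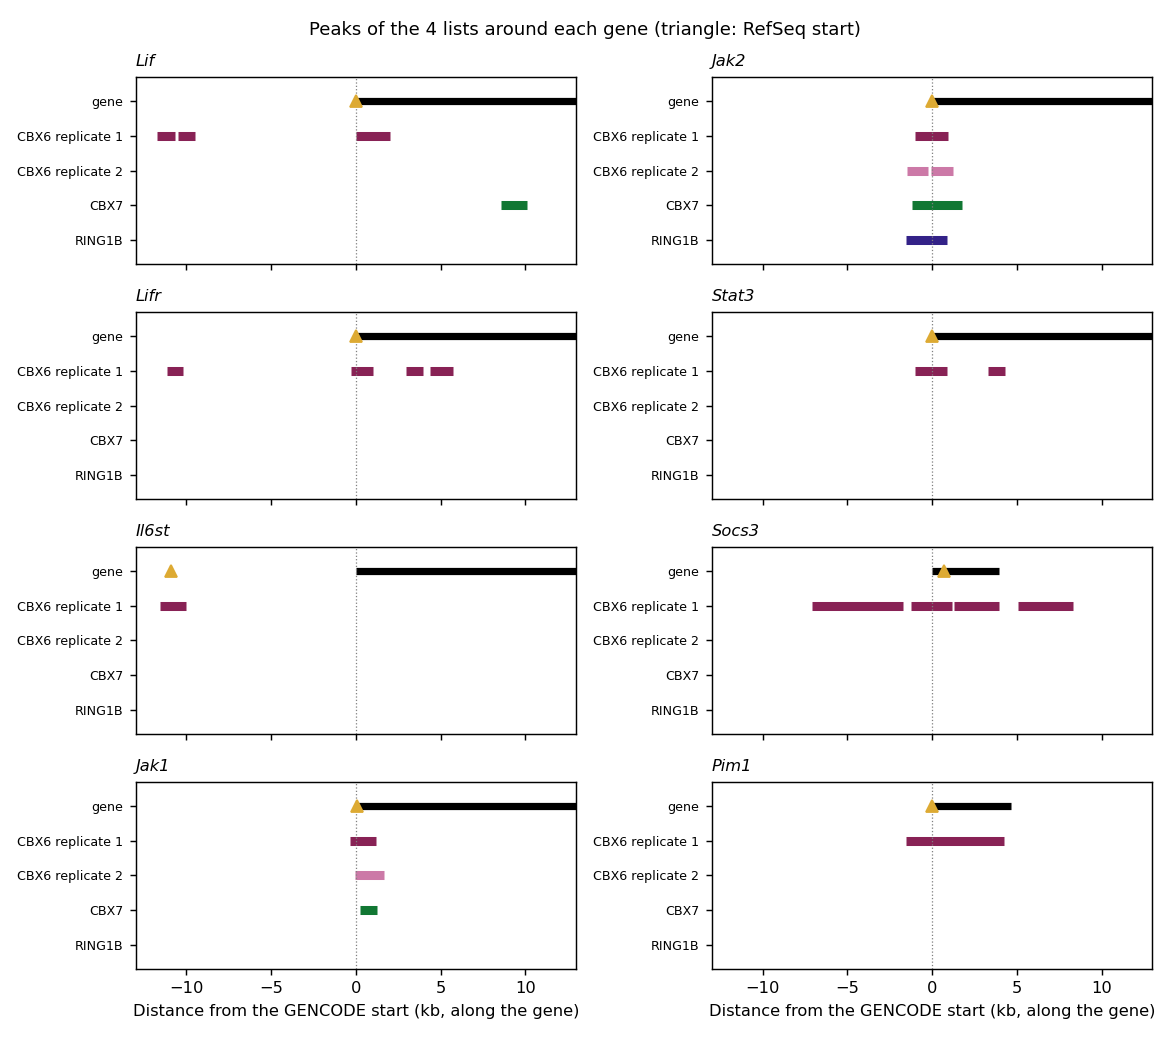
Peaks of the 4 lists around each of the 8 genes, as bars against the distance in kb from the GENCODE start along the direction of the gene, with the gene as a black bar (drawn to at most 13 kb) and the RefSeq start as a triangle. Jak2 has peaks of all 4 lists across its start, Jak1 has peaks of 3 lists at or just inside it, and the Il6st peak lies at the upstream RefSeq start.

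Jak2 (chr19:29326318-29387570, plus strand, mm9) was the member with peaks of all 4 lists, a state shared with 11.5% of all genes and 7.18% of expressed genes. The CBX6 replicate 1 peak, chr19:29325291-29327279, had a score of 191.7, the 85.4th percentile of its list. CBX6 replicate 2 had a pair of peaks, chr19:29324807-29326057 and chr19:29326265-29327520, with scores of 131.7 and 111.5. The CBX7 peak ran from 29325127 to 29328071 (score 181.2) and the RING1B peak from 29324797 to 29327178 (score 197.3), at the 38.0th and 34.5th percentiles of their lists. All 4 lists thus had a peak across the start of the least abundant tested member.

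Jak1 (chr4:100824972-100937887, minus strand) carried CBX6 peaks in both replicates over its start and a CBX7 peak that began 216 bp downstream of it. They were chr4:100936690-100938244 with a score of 99.1, chr4:100936254-100937929 with 205.3 and chr4:100936649-100937671 with 145.6. The nearest RING1B peak lay 26.0 kb upstream. The kinase genes were thus the only members with peaks of both CBX6 replicates, and their levels stood at the 53.3rd and 4.68th percentiles in control ESCs.

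The promoters of these kinase genes and of Lifr are shown because they differ in CpG content, which goes with Polycomb binding in ESCs in general, while Lifr has no peak of CBX6 replicate 2, CBX7 or RING1B within 254 kb of its start. The sequences are those upstream of the RefSeq start (RefSeq promoter table, GRCm38.p6), each matched exactly to 1 place in mm9 and ended before the first exon of the mm9 annotation. CpG dinucleotides are in capitals, read 5′ to 3′ along the gene, for Jak2 at chr19:29326043-29326292 (plus), Lifr at chr15:7079322-7079558 (plus) and Jak1 at chr4:100937888-100938078 (minus).
Jak2: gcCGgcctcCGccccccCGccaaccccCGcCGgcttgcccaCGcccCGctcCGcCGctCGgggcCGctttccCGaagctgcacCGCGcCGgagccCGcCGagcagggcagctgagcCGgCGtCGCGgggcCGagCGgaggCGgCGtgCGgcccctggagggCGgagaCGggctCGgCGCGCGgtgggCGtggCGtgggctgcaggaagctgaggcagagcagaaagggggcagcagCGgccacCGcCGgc
Lifr: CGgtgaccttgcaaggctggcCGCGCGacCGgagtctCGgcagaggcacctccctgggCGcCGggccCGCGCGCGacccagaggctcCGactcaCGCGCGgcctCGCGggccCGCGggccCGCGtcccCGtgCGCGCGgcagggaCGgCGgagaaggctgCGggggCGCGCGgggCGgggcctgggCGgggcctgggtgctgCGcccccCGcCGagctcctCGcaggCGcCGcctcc
Jak1: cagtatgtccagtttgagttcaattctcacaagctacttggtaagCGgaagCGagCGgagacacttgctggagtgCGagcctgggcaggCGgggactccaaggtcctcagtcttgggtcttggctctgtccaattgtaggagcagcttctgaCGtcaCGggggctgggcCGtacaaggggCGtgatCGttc

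The printed stretches hold 37, 40 and 10 CpG in 250, 237 and 191 bases. Over the whole 300 bases of a promoter, 250 before the start and 50 after it, the promoters at the starts in the plot of peaks held 53 CpG for Lifr, 44 for Jak2, 42 for Pim1, 33 for Il6st, 31 for Socs3, 29 for Jak1, 15 for Stat3 and 7 for Lif, where the median of 32851 promoters was 7. RefSeq lists a further start for Lifr and for Pim1 inside the gene, whose promoters held 4 and 5 CpG, the one of Lifr in no peak and the one of Pim1 in its CBX6 replicate 1 peak. The first Lifr promoter, at the 99.65th percentile, and that of Jak2, at the 98.07th, were thus alike in CpG and unlike in peaks: all 250 upstream bases of Jak2 lay in CBX6 replicate 1, CBX7 and RING1B peaks, and those of Lifr in a CBX6 replicate 1 peak only.

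Lifr (chr15:7079559-7147489, plus strand) had 3 CBX6 replicate 1 peaks, chr15:7079243-7080595 over the start, chr15:7082538-7083537 and chr15:7083919-7085293, all of low score (67.2, 61.1 and 60.3, under the 26th percentile of the list). The nearest peak of each other list was 254 kb upstream. Il6st (chr13:113265216-113297068, plus strand) had no peak of any list in its window. A CBX6 replicate 1 peak at chr13:113253672-113255193 with a score of 139.1 ended 10.0 kb upstream of that start, and the RefSeq start of Il6st, at 113254278, lies inside it. With RefSeq starts, an alternative added after the data were seen, all 8 members had a CBX6 replicate 1 peak and the counts of the other lists were the same.

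Lif (chr11:4157560-4172517, plus strand) had a CBX6 replicate 1 peak over its start, chr11:4157535-4159596, with a score of 69.7. Its CBX7 peak, chr11:4166145-4167670 with a score of 216, began 8.59 kb downstream of the start, inside the gene. The nearest peaks of CBX6 replicate 2 and RING1B were 258 kb upstream. At Lif, then, no peaks of different lists overlapped, unlike at Jak1 and Jak2.

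Stat3 and Pim1 had the highest CBX6 replicate 1 scores of the 8 genes. At Stat3 (chr11:100746412-100800854, minus strand) the peak chr11:100799960-100801863 over the start scored 445.9, the 98.9th percentile of the list, and a second, chr11:100796533-100797580, scored 90.5. The nearest CBX6 replicate 2 peak was 29.2 kb upstream of the start, the nearest CBX7 peak 18.8 kb and the nearest RING1B peak 29.0 kb. At Pim1 (chr17:29627757-29632390, plus strand) a single peak, chr17:29626200-29631992, covered nearly the whole gene with a score of 399.6, the 98.5th percentile. Peaks of the other 3 lists were at least 73.9 kb away. High scores in CBX6 replicate 1 thus stood at members that CBX6 replicate 2 left without a peak.

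Socs3 (chr11:117827393-117831361, minus strand) had 3 CBX6 replicate 1 peaks in its window, chr11:117827405-117830048, chr11:117830176-117832614 and chr11:117833064-117838442, with scores of 72.6, 146.8 and 211.1. A further peak of that list, chr11:117823061-117826267 with a score of 228.6, lay past the end of the gene. The nearest CBX7 peak was 19.7 kb downstream of the start, and the nearest CBX6 replicate 2 and RING1B peaks were 334 and 384 kb upstream.

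The sequence upstream of the RefSeq start of Socs3, at 117830680, is shown because Socs3 alone among the 8 genes has in its RefSeq promoter the letters TTCNNNGAA, the palindrome that STAT factors bind (any base at N, so both strands are read at once). It is the RefSeq sequence at chr11:117830766-117830930 (mm9, minus strand, matched to 1 place), inside the CBX6 replicate 1 peak, with the palindrome in capitals 154 bases before the RefSeq start. The GENCODE start of Socs3, at 117831361, lies farther upstream, so in that annotation this stretch is inside the gene, in an intron of the transcript that begins there.
Socs3: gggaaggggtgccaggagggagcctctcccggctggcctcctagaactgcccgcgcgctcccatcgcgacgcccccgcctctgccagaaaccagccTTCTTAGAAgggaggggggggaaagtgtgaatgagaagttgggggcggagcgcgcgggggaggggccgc

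Of the 32851 RefSeq promoters of this length, 2726 (8.30%) hold these letters, so they are not rare in promoters. The same letters were then sought in all CBX6 replicate 1 peaks at the members. The 5 places in the Socs3 peaks are shown with 10 bases on either side, along the gene, with the palindrome in capitals.
Socs3 chr11:117830553-117830561: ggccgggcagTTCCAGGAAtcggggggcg
Socs3 chr11:117830826-117830834: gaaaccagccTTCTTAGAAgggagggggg
Socs3 chr11:117835771-117835779: tccctggggcTTCCCAGAAgccacaacat
Socs3 chr11:117837074-117837082: cctctgagttTTCTGGGAAacgccagagg
Socs3 chr11:117837539-117837547: gcagcctggcTTCCCAGAActgcccagct

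The peak over the Socs3 start held 2 of them, and 15% of windows of that width centred on the 21865 peaks of the list held at least as many. The upstream peak held 3, a number reached in 21.5% of windows of its own width. The Pim1 peak held 1, which 81.1% of windows of its width did, and the Jak2 peak 1 (41.4%). The Jak1 peak held 2, a number reached in 6.55% of windows, and the CBX6 replicate 1 peaks of Lif, Lifr and Stat3 held 0. A match to these letters is not evidence of STAT3 at the place, as no STAT3 ChIP-seq is part of these data.

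Among the other pathway genes named here, peaks of all 4 lists stood at Il11ra1, Tbx3 and Gbx2, read lower in both shCbx6 libraries, and at Socs1, whose groups overlapped with a higher shCbx6 mean. Peaks of all 4 lists were the state of 11.5% of all genes and 7.18% of expressed genes. Akt1 had peaks of 3 lists, and Stat5a, Ier3 and Socs2 of 2. A peak of CBX6 replicate 1 alone, the state of 62.4% of expressed genes, stood at Klf4, Tfcp2l1, Nanog, Stat4 and Pim3, as at Stat3 and Socs3. The paper states that CBX6 was not found at any pluripotency gene that fell after its depletion. CBX6 replicate 2 had no peak at Klf4, Tfcp2l1 or Nanog. Cntfr had a peak of CBX7 alone, and Pim2 had a peak of no list in its GENCODE window. Genes read lower in both shCbx6 libraries thus included some with a peak of 1 list and some with peaks of all 4, and Pim2, with the largest ratio of the tested pathway genes, had none.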

How the data were processed

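The 4 RNA-seq libraries and 4 of the 7 ChIP-seq samples (11 samples in all) were used. The authors aligned RNA reads to mm9 with TopHat, and the deposited table gives Cufflinks FPKM per RefSeq gene. FPKM are shares of a library, so a change in total RNA cannot be seen. The authors aligned ChIP reads with Bowtie, keeping reads with a single place, and ran MACS on each sample, whose peak score is the deposited score. HA and CBX7 ChIP used a kit and RING1B another protocol, so scores and peak numbers of different lists are not on one scale. Versions of these tools are not given in the sources used here.

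Groups came from the sample titles. limma 3.58.1 (R 4.3.3; lmFit, eBayes with trend, no replicate term, Benjamini-Hochberg) was fitted to log2(FPKM + 1), with pseudocount 1, for the 11592 genes whose mean reached 1 FPKM under either hairpin. The scale understates changes of low genes. Peaks were assigned in Python 3.11.15 (pandas 2.3.3, numpy 2.4.6, matplotlib 3.10.9) on GENCODE M1, which differs from the RefSeq annotation that the authors used (21149 symbols were found directly and 772 through synonyms). The limma and peak steps were tested on simulated data. The changes planted for limma were larger than those of the members, so how well differences of their size are found was not tested.

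All 8 members are named. Of the other pathway genes, those called, or past 1.5-fold with groups that do not overlap, are named, at most 10 by size of ratio (12 met this, and Stat5a is mentioned beyond the 10), with the 3 genes most like Socs3 and like Pim1. The values of 2 genes of the lists are not reported here, though the counts of the lists include them. The members and lists were chosen with earlier results of these data known. Alternatives covered the filter, pseudocount, scaling, replicate block, each library left out, peak score, window, overlap and start site.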

Additional observations from a re-analysis of the deposited data

How the results depend on the processing

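No member was called by limma under any alternative run (0 called in each, also with each library left out). The members past 1.5-fold, 1 as reported, were 2 with no filter on low FPKM (Lif added), and 1 to 3 with each library left out: without shCbx6 replicate 1, Lif and Stat3 were added to Lifr, and without shCbx6 replicate 2, Jak1 and Socs3 passed and Lifr, at a ratio of 0.703, did not. Without shCtl replicate 1 the count was 1, but it was Socs3 (ratio 0.665) and not Lifr (0.712). Pathway genes past 1.5-fold, 15 as reported, were 21 with no filter (8 higher, 13 lower) and 13 to 18 with each library left out. Members with a CBX6 replicate 1 peak fell from 7 to 4 when a score of at least 100 was required, which removes Lif, Lifr and Jak1. The log2 difference of Jak2, -0.11 as reported, ranged from -0.25 without shCbx6 replicate 2 to 0.021 without shCbx6 replicate 1. Without shCbx6 replicate 1, Pim2, Tbx3, Klf4 and Tfcp2l1 were among those that gained a limma call, and without shCbx6 replicate 2, Pim2 did. Such a fit leaves 1 library in the arm, which is assumed to vary like the control libraries. Of the other values under the alternatives, 39 counts stayed within 1.5 times the reported one and 146 log2 differences kept their direction and their side of the threshold, while 15, of pathway genes or Cbx6, gained a call. With 2 libraries per group, differences near 1.5-fold are hard to call, and the peak lists carry no counts.

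Libraries of the 2 groups share replicate numbers only. Their deviations from the group means correlated at 0.266 over 11592 genes within a number, and no label says that a number marks a batch. With the replicate block, limma called 183 genes higher and 205 lower over all genes, against 5 and 6 without it. The block called 0 of the 7 tested members and 7 of 56 pathway genes (among them Gbx2, Klf4, Nanog, Pim2, Tbx3 and Tfcp2l1), against 0 without it.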

Other observations

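The remaining lists held genes read higher and genes read lower. Of 16 negative regulators, all tested, 4 were below and 2 above both controls (24.4% and 18.9% of all genes), 1 had an unadjusted p under 0.05 by limma (Socs3), 0 passed the adjusted threshold, and the median log2 difference was 0.01. Socs3 was the lowest of them at -0.53. Socs2, a further SOCS gene, overlapped between the groups, with 49.0 and 45.0 FPKM in shCtl against 66.7 and 42.1 FPKM in shCbx6. The phosphatase genes Ptpn1 and Ptpn2, whose products act on Janus kinases, had log2 differences of 0.01 and 0.02. These genes were named after their values were seen.

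On the RAS and PI3K arm, 11 genes were tested, 3 were below and 3 above both controls (24.4% and 18.9% of all genes), and the median log2 difference was -0.03. Beside Tbx3 and Nanog, no gene of this arm was past 1.5-fold. Akt1, a kinase downstream of PI3K mentioned because of its values, measured 11.6 and 12.4 FPKM in shCtl against 14.0 and 20.6 FPKM in shCbx6 (log2 difference 0.47 ± 0.207 SE, limma, adjusted p = 0.467). Among the 8 ligand genes, 2 were tested, Ctf1 and Cntf, and both overlapped between the groups.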
